A study of Mus musculus with 3 samples.

Results

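The 9 genes described here encode adaptors and enzymes that carry signals from antigen receptors and related receptors of leukocytes: the cytosolic adaptors Blnk and Lcp2, the membrane adaptors Lat, Lat2 and Lax1, the kinases Lyn, Syk and Btk, and the phospholipase Plcg2. They were chosen by name, with 11 probes in all, out of 36095 gene names and 55681 probes on the array. Of the 9 genes, 8 were found under their own name and Syk under its older name Sykb, through its RefSeq accession. The choice was made because Blnk was lower and Lax1 was detected only with the transgene, so the differences of these genes between control and transgenic arrays are given as a description, with no test.

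RNA came from mouse yolk sac cells sorted by flow cytometry as positive for VE-cadherin (Cdh5), an adhesion protein of endothelium, and for CD45 (Ptprc), a surface protein of blood cells. The control group was 1 sample of E10.5 embryos, labelled only as control. The Tie-2-Etv2 group was 2 samples, in which a transgene for the ETS transcription factor Etv2 was switched on by a Cre transgene driven by the Tie-2 (Tek) promoter; their embryonic day is not given in the labels. All samples were of a mixed strain (B6/CBA and others), were sorted and not cultured or treated afterwards, and were hybridised to 1 Cy3 array each on 1 slide. The Tie-2 promoter is active in endothelial cells and in blood cells that derive from them, so the sorted fraction is one in which the transgene can be on. The labels do not say whether a sample was 1 embryo or a pool, or whether the Tie-2-Etv2 samples were separate litters, so the spread between them may be technical.

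Antigen receptors and many Fc and lectin receptors have no kinase of their own and signal through tyrosine motifs known as ITAMs. A Src family kinase such as Lyn phosphorylates the ITAM, Syk binds it, and Syk phosphorylates an adaptor on which a Tec family kinase such as Btk and a phospholipase C gamma come together. The adaptor is mainly Blnk in B cells and Lat together with Lcp2 (SLP-76) in T cells, platelets and mast cells. Lat2 is a relative of Lat in B cells, monocytes and mast cells, and Lax1 is a membrane adaptor of lymphocytes that dampens receptor signals. Several of these genes are also active in macrophages, mast cells and megakaryocytes, which the yolk sac makes before any lymphocyte.

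Blnk, Lax1 and Lat, which differed from the control by 2-fold or more on both transgenic arrays, and Lat2 were measured with 1 probe each. The last 30 bases of these probes of 60 bases are shown to identify what was measured, with a polyadenylation signal (AATAAA) in capitals where there was one.
Blnk: tgatactaatattgtccaAATAAAtgtatt
Lax1: agcacttagagtggaagcatgacgtgatag
Lat: ccgactatgagaatctacaggagcttaact
Lat2: agtcgtatttaatattgtcaatgtcagggg
On build mm9 the Blnk probe lies at chr19:41003426-41003485, the Lax1 probe at chr1:135576130-135576189, the Lat probe at chr7:133507719-133507778 and the Lat2 probe at chr5:135076329-135076388, all on the minus strand. Per the array annotation they start at bases 2028, 1689, 958 and 1254 of their transcripts. The Blnk probe alone of these 4 held the polyadenylation signal.

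Between 24218 and 27018 probes were well above background on an array, and Tie-2-Etv2 replicate 1 was the dimmest: the 75th percentile of probes detected on all arrays was 1199 intensity units there, 2073 on the control array and 2092 on replicate 2. A level is the log2 ratio of a signal to this percentile, so levels compare 1 probe across arrays and do not give the relative abundance of genes. A summed level, given below for lists of markers, adds linear levels of different probes, so bright probes weigh most in it. Etv2 itself was at -4.84 on the control array, -0.41 on replicate 1 and -1.62 on replicate 2. The genes of the sort were well above background on all 3 arrays, with Cdh5 at -4.08, 0.39 and -1.48 and Ptprc at -1.08, -1.51 and -1.58. Over all genes the median difference from the control was 0.07, and the median distance between the Tie-2-Etv2 replicates was 0.31. No gene of 19580 tested passed limma's test (0%, threshold of 0.05 after Benjamini-Hochberg adjustment, smallest adjusted p = 0.200), while 2110 (10.8%) had an unadjusted p under 0.05, and 0.333 is the smallest p that exact permutation of these 3 arrays allows.

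Of the cytosolic adaptors, Blnk was lower on both transgenic arrays and Lcp2 lay on either side of the control. Blnk, the scaffold that links Syk to phospholipase C gamma and Btk in B cells, had a processed signal of 782 ± 78.3 on the control array, 49.8 ± 5.42 on replicate 1 and 125 ± 12.7 on replicate 2, where the error is the scanner software's own error of the spot. Its levels were -1.41 on the control array, -4.59 on replicate 1 and -4.07 on replicate 2. Blnk was chosen as lower and the control has 1 array of unknown spread, so nothing is read from this gap. The difference was -2.92 ± 0.37 (SD, n = 2), or 7.58-fold lower, with 9.09-fold for replicate 1 and 6.32-fold for replicate 2. With normexp background correction it was -2.21. Lcp2, the corresponding scaffold of T cells, platelets and mast cells, was at -3.29, -3.21 and -3.83, and its replicates fell on opposite sides of the control (0.08 and -0.54).

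Macrophages also use Blnk, and genes that mark them were lower too. All 13 macrophage markers (among them Adgre1, Csf1r, Cd68, Mrc1, Cx3cr1, C1qa, C1qb, C1qc, Fcgr1, Maf, Cd14 and Timd4) were well above background on the control array and at least 2-fold lower on both transgenic arrays. Their median difference was -3.74, with -5.21 on replicate 1 and -2.61 on replicate 2, and their summed linear level was 76.4 times the percentile on the control array, 5.08 on replicate 1 and 17.6 on replicate 2. Of the 13, 11 were well above background on replicate 1 and 12 on replicate 2, and Timd4 on neither. The differences of Blnk on the replicates lay 0.52 apart, those of Csf1r 1.41 apart (-3.00 and -1.59). Of 11 B lineage markers, Ebf1, Pax5, Ms4a1, Rag1, Rag2 and Igll1 were well above background on no array, and Cd79b, Cd79a, Cd22 and Vpreb1 were tested, with a median difference of 0.03. Cd79a differed by 0.67 and 0.37, Cd22 by 0.22 and 0.09, Vpreb1 by 0.09 and -0.29 and Cd79b by -1.72 and -0.89 on the replicates. The summed level of this list was 2.55 on the control array, 0.870 on replicate 1 and 1.42 on replicate 2, and Cd79b, at log2 levels of 1.30, -0.43 and 0.41, made up most of it on the control array. Other lists were lower as well: 8 of 9 visceral endoderm markers were at least 2-fold lower on both arrays (median -2.78, summed level 27.1, 1.68 and 11.4), as were 4 of 7 mesenchyme markers (median -3.69, summed level 1.36, 0.177 and 0.120) and 6 of 9 erythroid markers (median -2.09, summed level 43.5, 8.41 and 12.2). Higher were 7 of 10 endothelial markers (median 2.37, summed level 2.33, 9.32 and 4.13) and 4 of 9 neutrophil markers (median 1.18, summed level 28.0, 61.7 and 63.7). The part of any of these lists in the Blnk difference was not tested, and in RNA of a mixed fraction fewer cells of a type and less RNA per cell cannot be told apart.

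The membrane adaptors lay on different sides of the control: Lax1 and Lat were higher with the transgene and Lat2 was lower. Lax1, whose probe is printed 10 times on each array, kept 10, 10 and 9 spots after 1 outlier on replicate 2 was left out. The processed signal of its spots ran from 3.33 to 14.9 with a median of 9.66 on the control array, from 136 to 166 with a median of 150 on replicate 1, and from 145 to 180 with a median of 155 on replicate 2. On the control array 1 of 10 spots was well above background, against 10 of 10 and 9 of 9 on the transgenic arrays, and the ranges of spots did not overlap between the groups. Lax1 was chosen as detected only with the transgene, so nothing is read from that separation. Spots of 1 array share its RNA, so the spread of spots (a coefficient of variation of 6.04% and 7.30% on the transgenic arrays) measures printing and scanning only.

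The level of Lax1 was -2.98 on replicate 1 and -3.72 on replicate 2. Since the control was not well above background, the fold for Lax1 is given as a bound under the main scaling. The mean of the transgenic arrays was at least 14.7-fold higher, with bounds of 19.0-fold for replicate 1 and 11.4-fold for replicate 2. This bound sets the transgenic mean against the higher of the control's measured -7.88 and the lowest level detected on the control array, -7.23. The measured difference was 4.52 ± 0.53 (SD, n = 2). With normexp background correction the log2 difference of Lax1 was 1.96, under the 3.88 of the bound, so the bound does not hold with that processing. Later bounds for genes detected in the control only or with the transgene only are of this kind, on the mean of both transgenic arrays. Of the 19580 genes tested, 503 (2.57%) were, like Lax1, detected on both transgenic arrays and not on the control array.

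**Figure D1:**
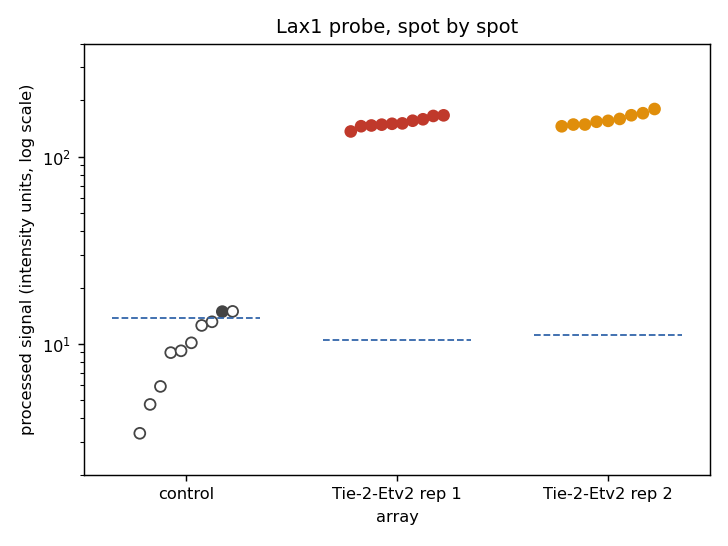
Processed signal of the Lax1 probe in intensity units (log scale) in each spot of the control array and of both Tie-2-Etv2 arrays, sorted within an array; filled points are well above background, open points are not, and dashed lines mark the lowest signal of any probe well above background on that array. The control spots lie between 3.33 and 14.9 and the transgenic spots between 136 and 180.

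Lat, the membrane scaffold that gathers phospholipase C gamma and Lcp2 in T cells, platelets and mast cells, was measured at a processed signal of 193 ± 19.5 on the control array, 458 ± 45.8 on replicate 1 and 578 ± 57.9 on replicate 2 (scanner error). Its levels of -3.43, -1.39 and -1.86 put both transgenic arrays above the control. Lat was 3.50-fold higher, with 4.11-fold for replicate 1 and 2.97-fold for replicate 2, a log2 difference of 1.81 ± 0.33 (SD, n = 2). Cell types that use Lat gave mixed marker values. Of 12 megakaryocyte and platelet markers, 4 were at least 2-fold higher on both arrays (among them Clec1b, Itga2b and Gp9) and 2 lower (Ppbp and Pf4). Gp6, detected on the control array only, was at least 1.91-fold lower under the main scaling, with a log2 difference of -0.07 under normexp background correction. The summed level of this list was 9.22 on the control array and 13.3 and 10.496 on the transgenic arrays. Of 10 mast cell markers, 5 were tested and Cpa3 and Gata2 were 2-fold higher on both arrays. Kit differed by 0.73 and 0.77, Hdc by 0.01 and 1.02 and Tpsb2 by -0.27 and -0.07 on the replicates. Ms4a2, Fcer1a, Mcpt4, Cma1 and Tpsab1 were well above background on no array. The summed level of the mast cell list was 1.55, 5.29 and 3.91. Gata2, at log2 levels of -0.84, 1.53 and 0.84, was its largest part on both transgenic arrays. Of 10 T lineage markers, Cd3d, Cd3g, Tcf7 and Bcl11b were well above background on no array, and 0 were 2-fold higher on both arrays. Of the 5 tested, Thy1 was at least 3.56-fold higher, Zap70 differed by 1.41 and 0.58, Cd3e by 0.27 and 0.23 and Cd4 by 0.11 and 0.16, while Il7r, detected on the control array only, was at least 1.95-fold lower. The summed level of the T lineage list was 0.628, 0.803 and 0.721. The part of these cell types in the Lat difference was not tested.

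Lat2, the relative of Lat in B cells, monocytes and mast cells, had a processed signal of 155 ± 15.9 on the control array, 17.3 ± 3.15 on replicate 1 and 79.2 ± 8.36 on replicate 2, where 10.54 was the lowest signal detected on replicate 1. Its levels were -3.74, -6.11 and -4.72. Lat2 was 5.19-fold lower on replicate 1 and 1.98-fold lower on replicate 2, which left it just outside a 2-fold difference on both arrays, and Lat on replicate 2 at 2.97-fold was the nearest inside. The log2 difference of -1.68 ± 0.98 (SD, n = 2) was the least even of the 9 genes, with 1.39 between the replicates. It was -0.66 with normexp background correction, and with the local median around each spot subtracted Lat2 was 2-fold lower on both arrays. The macrophage list was lower as well, with a median of -5.21 on replicate 1 and -2.61 on replicate 2, and so were the visceral endoderm (-4.40 and -1.23), erythroid (-2.35 and -1.70) and mesenchyme (-3.23 and -4.09) lists. Of the cell types named for Lat2, the tested mast cell markers had medians of 0.73 and 1.02. The tested B lineage markers had medians of 0.16 and -0.10. The part of any of these lists in the Lat2 difference was not tested.

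**Figure D2:**
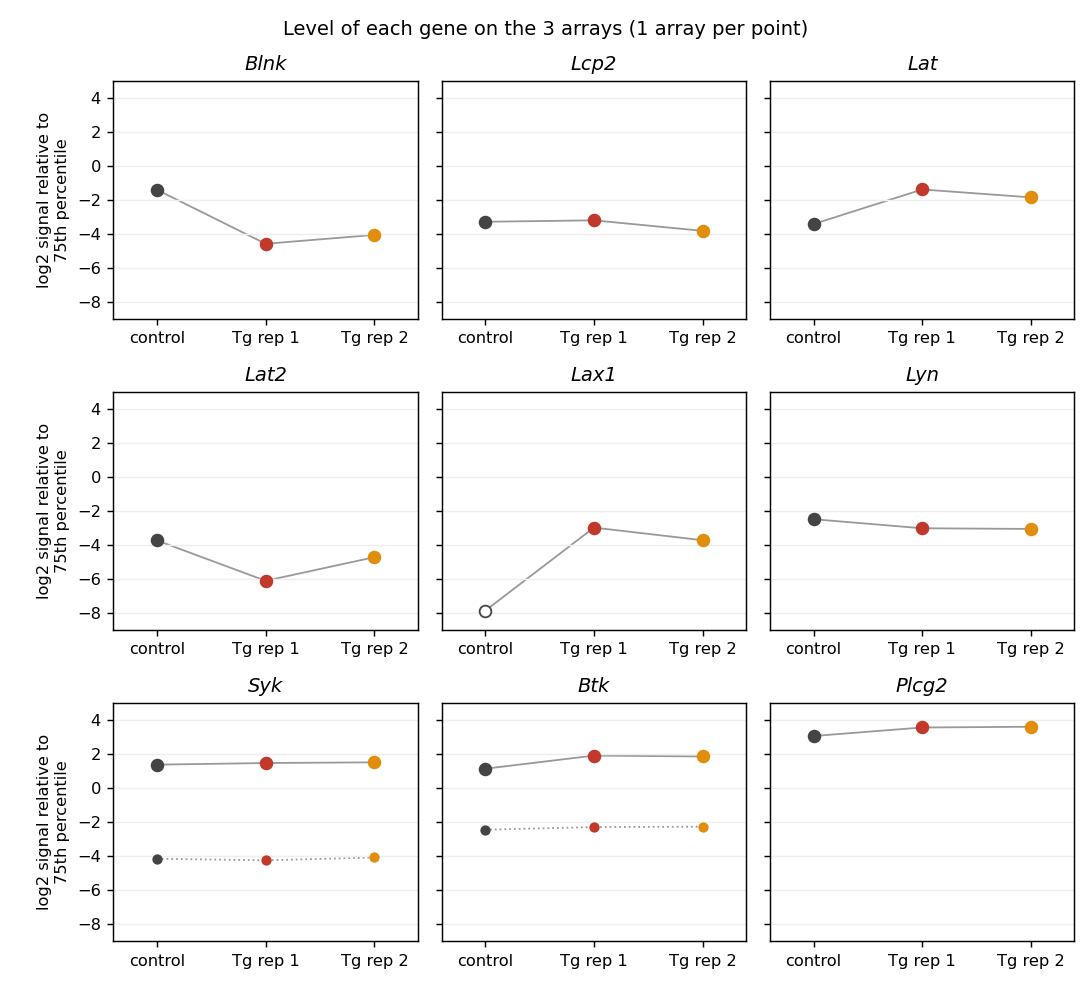
Level of each of the 9 genes (log2 signal relative to the 75th percentile of probes detected on all arrays) in the control and in Tie-2-Etv2 replicates 1 and 2; 1 point is 1 probe on 1 array, an open point is not well above background, and a dotted line is the gene's dimmer probe. Levels compare arrays within a panel only: Blnk is at -1.41, -4.59 and -4.07, Lat at -3.43, -1.39 and -1.86, and Syk between 1.38 and 1.52.

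The kinases and the phospholipase stood closer to the control than Blnk, Lax1, Lat and Lat2, though Lyn, Btk and Plcg2 stood further from it than Lcp2. Syk, the kinase that binds phosphorylated ITAMs, was at 1.38, 1.48 and 1.52, a difference of 0.12 ± 0.03 (SD, n = 2), and its dimmer probe gave -0.01 ± 0.12. Lyn, the Src family kinase that starts the cascade in B cells and myeloid cells and also activates inhibitory receptors, was at -2.49, -3.02 and -3.06, which was 1.47-fold lower (1.45-fold and 1.49-fold). Btk, the Tec family kinase whose loss blocks B cell development, was at 1.15, 1.92 and 1.87 with its brighter probe, 1.68-fold higher. Its other probe gave 0.17 ± 0.02, so the Btk probes differ in size of change but not in sign. Plcg2, the phospholipase that Btk and Blnk activate, was at 3.07, 3.57 and 3.62, which was 1.44-fold higher. For Lyn, Btk and Plcg2 the difference from the control was larger than the distance of 0.04 to 0.05 between the replicates, but the control has 1 array, and its own spread is unknown.

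Among the 9 genes, all of which passed the filter on dim probes, 2 (22.2%, Lat and Lax1) were at least 2-fold higher on both transgenic arrays, where 767 of all genes tested (3.92%) were. Blnk was the 1 gene (11.1%) at least 2-fold lower, where 1300 (6.64%) were. Because the genes were chosen on this contrast, nothing is read from these shares. Lax1 would leave the count if only probes detected on all 3 arrays were kept, and Lat2 would join Blnk if replicate 2 were left out. The median difference of the 9 genes was 0.12, beside 0.07 for all genes. Blnk, Lax1, Lat and Lat2 each had their larger difference on replicate 1, as did Etv2 (4.42, against 3.22 on replicate 2). The whole array leaned the same way. On replicate 1 alone 1788 genes were at least 2-fold higher and 2193 lower, against 899 and 1634 on replicate 2 alone. What sets the replicates apart was not tested.

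**Figure D3:**
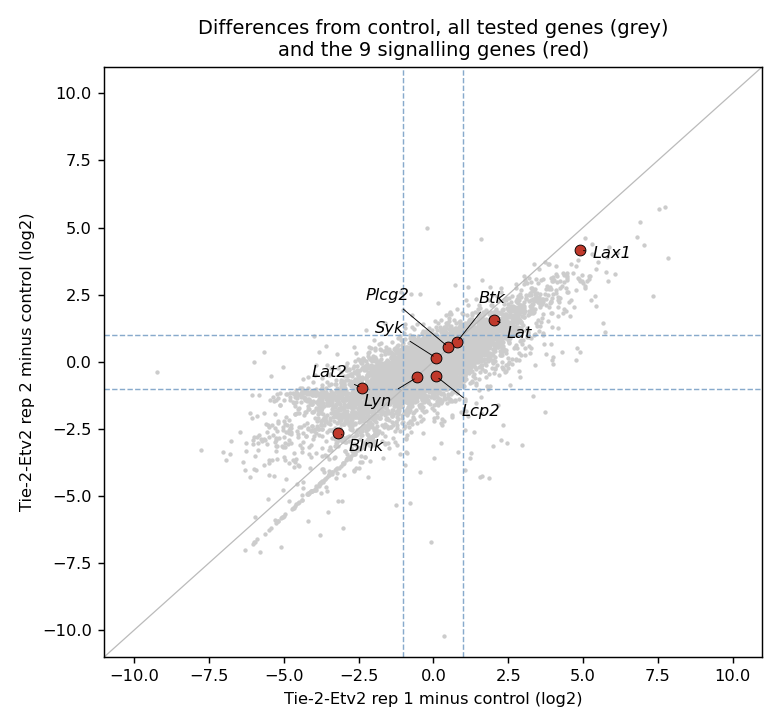
Log2 difference from the control, for Tie-2-Etv2 replicate 1 (horizontal) and replicate 2 (vertical), of all 19580 tested genes in grey and the 9 signalling genes in red; dashed lines mark 2-fold and the diagonal marks equal differences. Lax1 and Lat lie beyond 2-fold above the control on both axes, Blnk beyond 2-fold below it, and Lat2 beyond it on replicate 1 only (-2.38 and -0.99).

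Around these 9 genes, 111 other genes of the same pathways were listed by role, and 93 of them were tested. None passed limma's adjusted threshold (adjusted p from 0.213 to 0.997), and 26 had an unadjusted p under 0.05. By measured size alone 11 (11.8%) were at least 2-fold higher on both arrays and 12 (12.9%) lower, beside 3.92% and 6.64% of all genes. The lists were chosen with earlier results of these data known, so nothing is read from these shares. With values not well above background taken at the lowest detected level, 11 of the 93 were higher and 10 lower. Of all 19580 genes tested 624 and 1014 were. The measured call of Gp6 and of Clnk rests on values under that level. Those counts were 18 and 20 on replicate 1 alone, and 6 and 7 with normexp background correction, with which 9 passed limma's test; without the filter on dim probes 3 did. The median difference of the 93 genes was 0.12.

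In what follows a pair of values is the log2 difference from the control on replicate 1 and then on replicate 2. Of 9 tested receptors and ITAM chains, Clec1b (CLEC-2, a platelet receptor that signals through Syk) was at 3.82 on replicate 1 and 2.50 on replicate 2. Cr2, a complement receptor of B cells, was not well above background on the control array. Its measured mean difference was 1.24, and 0.54 with normexp background correction. Gp6, the collagen receptor of platelets, was detected on the control array only and at least 1.91-fold lower under the main scaling. With normexp background correction its mean difference was -0.07. The ITAM chains Fcer1g and Tyrobp, which recruit Syk in myeloid and mast cells, had differences of -0.41 and -0.55 for Fcer1g and of -0.76 and -0.73 for Tyrobp. Cd247, Cd3d and Cd3g, the chains of the T cell receptor complex, were well above background on no array, whereas Cd3e was at 0.27 and 0.23.

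The kinases related to Lyn, Syk and Btk were not uniform. Of 9 tested, Fgr, a Src family kinase of myeloid cells, was at 3.67 and 3.07, while Lyn itself was at -0.53 and -0.57. Fyn and Lck, the Src family kinases of T cell receptor signalling, were at 0.29 and 0.08 for Fyn and at 0.94 and 0.15 for Lck. By size, 2 of the 9 (22.2%) were at least 2-fold higher on both arrays and 1 (11.1%) was lower, beside 3.92% and 6.64% of all genes. Tec, a relative of Btk, was at -0.69 and 0.18, and Blk, Src, Yes1 and Txk were well above background on no array. Zap70, the relative of Syk in T cells, was at 1.41 and 0.58.

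Among 30 tested adaptors beyond the 5 above, 2 (6.67%) were 2-fold higher on both arrays and 4 (13.3%) lower as measured. Of all genes 3.92% and 6.64% were. At the lowest detected level 3 of the 4 were still 2-fold lower. Skap1, an adaptor that works with Lcp2 in T cells, was at least 10.49-fold higher under the main scaling and not well above background on the control array. With normexp background correction its mean log2 difference was 2.10. Nck2, which binds Lcp2, was at 1.60 and 1.06. Lower were Themis2 (-3.72 and -1.74), which takes part in B cell and macrophage signalling, Bank1 (-2.31 and -1.67), a B cell scaffold that binds Lyn, and Fyb (-1.08 and -1.26), which binds Lcp2. Clnk, a relative of Blnk and Lcp2 in mast cells, was detected on the control array only and at least 1.70-fold lower under the main scaling. With normexp background correction its mean difference was -0.13. Skap2, the broadly expressed relative of Skap1, was at 0.07 and 0.09, and Grb2, the general adaptor that Lat and Lax1 recruit, was at 0.19 and 0.05.

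Downstream, 27 genes were tested. Plcg1, the phospholipase that binds Lat, was at 2.16 and 1.53, beside 0.50 and 0.55 for Plcg2. Prkcq, the protein kinase C of T cell signalling, was at 1.43 and 1.08. Prkcb, its counterpart in B cells, was at -3.30 and -2.02 (-2.58 and -1.72 with its second probe). Vav1, an exchange factor of all blood lineages, was at -0.05 and 0.07.

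Of 18 inhibitory receptors and phosphatases, 3 (16.7%) were 2-fold higher on both arrays and 4 (22.2%) lower, beside 3.92% and 6.64% of all genes. Ubash3a, a phosphatase family member that restrains T cell receptor signals, was at 1.95 and 2.12. Pecam1, an adhesion receptor of endothelium and platelets with inhibitory motifs, was at 1.53 and 1.27. Cd300lf, an inhibitory receptor of myeloid cells, was at 1.53 and 1.17 with its brightest probe. Of its other tested probes, 1 gave 1.42 and 1.16, and 1 gave 0.69 and 0.58, under 2-fold on both arrays. Lower were Ptprj, a receptor phosphatase (-3.56 and -1.61), Pirb, an inhibitory receptor of B and myeloid cells (-2.88 and -1.62), and Cd300a, an inhibitory receptor of leukocytes (-1.54 and -1.60). Cd72, an inhibitory receptor of B cells, was at least 2.95-fold lower under the main scaling and well above background on the control array only. With normexp background correction its mean difference was -0.25. Ptpn6 (SHP-1) and Inpp5d (SHIP-1), the phosphatases such receptors recruit, were at -0.59 and -0.17 for Ptpn6 and at -0.30 and -0.42 for Inpp5d. The macrophage, visceral endoderm, mesenchyme and erythroid lists were lower as well, at medians of -3.74, -2.78, -3.69 and -2.09, and the endothelial list (which holds Pecam1) and the neutrophil list were higher, at 2.37 and 1.18. The part of these lists in the pathway genes was not tested.

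**Figure D4:**
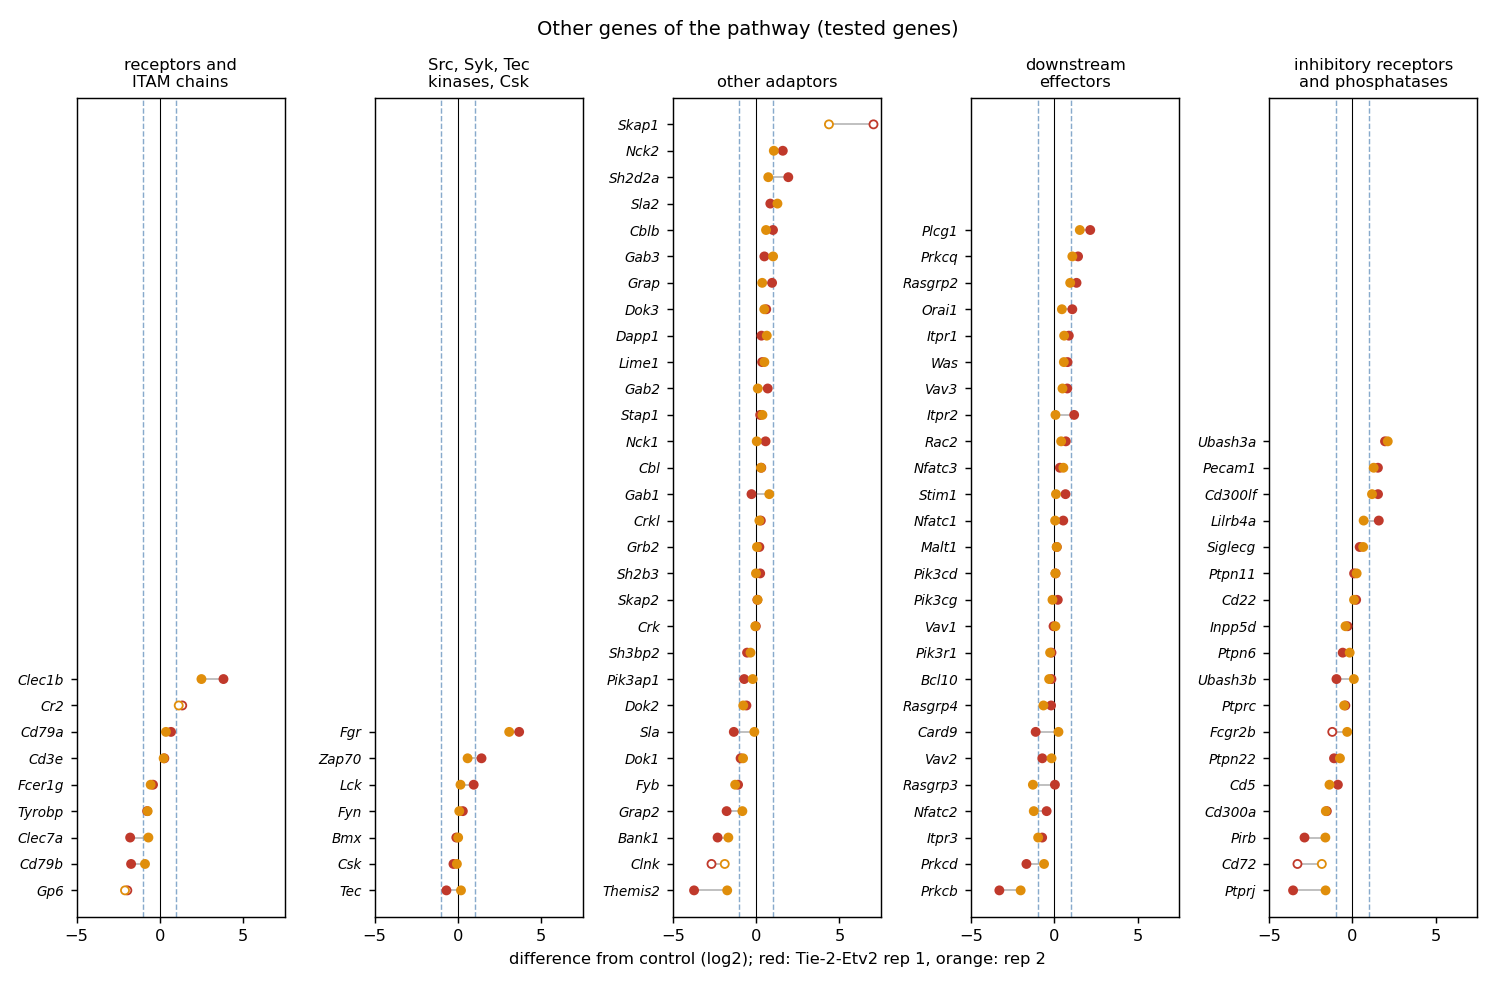
Log2 difference from the control of tested pathway genes, in 5 lists by role, on Tie-2-Etv2 replicate 1 (red) and replicate 2 (orange); open points are differences in which the control or that array was not well above background, and dashed lines mark 2-fold; a few genes counted in the lists are not plotted. Skap1 is plotted at 7.04 and 4.37 against a control that was not well above background, Fgr at 3.67 and 3.07 and Themis2 at -3.72 and -1.74.

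Since the transgene encodes an ETS factor, whose family binds DNA around the core GGAA, the promoter windows of the 3 genes that were 2-fold apart are shown, as windows of 300 bases around the RefSeq start, on the strand of the gene. The core GGAA and its reverse complement TTCC are in capitals.
Blnk: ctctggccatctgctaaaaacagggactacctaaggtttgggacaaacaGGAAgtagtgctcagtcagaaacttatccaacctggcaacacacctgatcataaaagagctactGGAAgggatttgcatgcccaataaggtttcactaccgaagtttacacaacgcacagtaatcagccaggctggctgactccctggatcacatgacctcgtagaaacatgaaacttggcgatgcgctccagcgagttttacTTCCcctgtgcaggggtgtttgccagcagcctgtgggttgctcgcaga
Lax1: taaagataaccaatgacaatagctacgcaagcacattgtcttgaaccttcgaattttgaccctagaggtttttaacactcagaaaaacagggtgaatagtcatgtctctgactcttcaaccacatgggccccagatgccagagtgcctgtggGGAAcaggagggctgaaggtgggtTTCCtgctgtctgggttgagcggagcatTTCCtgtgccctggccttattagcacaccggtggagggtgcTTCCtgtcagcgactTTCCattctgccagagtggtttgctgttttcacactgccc
Lat: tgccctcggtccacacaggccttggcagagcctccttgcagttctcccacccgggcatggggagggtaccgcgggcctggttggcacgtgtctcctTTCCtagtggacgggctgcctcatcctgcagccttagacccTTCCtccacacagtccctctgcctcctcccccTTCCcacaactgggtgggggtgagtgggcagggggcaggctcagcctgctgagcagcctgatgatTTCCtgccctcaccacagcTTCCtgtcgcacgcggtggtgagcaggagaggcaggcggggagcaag
On GRCm38.p6 these are chr19:40994172-40994471, chr1:133690059-133690358 and chr7:126369519-126369818, all on the minus strand. The windows held 3, 5 and 5 matches, beside a median of 3 over 32851 promoter windows of 300 bases, of which 96.0% held at least 1. The longer sequences CCGGAAGT, a consensus of many ETS factors, and GAGGAAGT, closer to that of the ETS factor PU.1, were searched on both strands; either match would also count as a GGAA. They were in 3.89% and 3.20% of all windows and in 0 of the 9 windows of Blnk, Btk, Lat, Lax1, Lcp2, Plcg2 and Syk. Lax1 and Syk had 2 windows each, and Lat2 and Lyn were not among the windows used. GGAA matches numbered 7 in the other Lax1 window, 7 in that of Lcp2, 5 in that of Btk, 2 in that of Plcg2, and 0 and 3 in those of Syk. No binding was measured here, and a match is a stretch of letters only.

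The genes whose pair of differences lay nearest to that of Blnk, among 19076 genes detected on the control array, were S100a4, Nacc2, an unnamed transcript, Gm14548 and Slc37a3, at distances of 0.05 to 0.11 log2 units over the 3 arrays. S100a4 was at -3.18 and -2.61, Nacc2 at -3.15 and -2.71 and Slc37a3 at -3.12 and -2.57, and 48 genes lay within 0.5. For Lax1, among 502 other genes detected on both transgenic arrays and not on the control array, 1 lay within 0.5. The nearest named genes by measured values were Robo3, Cd200r3, Klrb1a and Grm6. Since the control gives only a limit for Lax1 and for each of these genes, their distances and order are not settled.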

How the data were processed

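Yolk sac cells were measured on 3 Agilent 1-colour arrays of design 028005. The deposited intensity values come from Agilent Feature Extraction, version 10.7 per the submitters' processing notes and 10.7.3.1 per the file headers. Background had been subtracted and arrays had not been scaled to each other. Coordinates are on mm9, per the file headers. The authors' deposited log2 table, whose scale and centring are not stated, differed between arrays as the processed signal did apart from 1 constant per array (100% of 55677 probes within 0.01), was centred per probe on the median array, and served as an alternative; its column medians were 0, 0.136 and 0. Here control and outlier spots were left out, log2 signals of a probe averaged, and each array scaled to its 75th percentile over 22764 probes well above background on all arrays (a probe counted where most of its spots did). Probes detected in the control, or in both transgenic samples, were fitted with limma 3.58.1 in R 4.3.3 (26214 probes; 1 residual degree of freedom, from the Tie-2-Etv2 pair, whose spread was also taken for the single control). The fit was tested on simulated data. A gene was its brightest probe. Probe names were updated through RefSeq (26582 by accession, 2602 by symbol, 492 by synonym, 26005 unmatched and kept). The 9 genes and all lists were chosen with earlier results of these data known. Named beyond them were Etv2, Cdh5 and Ptprc, up to 3 genes per list and direction by the smaller of their differences, and the 5 nearest to Blnk and to Lax1; other named genes were chosen after their values were seen. Alternatives changed scaling, background correction, the filter, the probe rule, dim values, array position and replicates. The number of arrays limits the precision. Some genes of the lists are counted but not reported by name here. Tyrosine motifs of the proteins were planned and not analysed here. Sequences other than probes are from RefSeq, GRCm38.p6.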

Additional observations from a re-analysis of the deposited data

How the results depend on the processing

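All alternatives were planned. The differences of Blnk, Lax1 and Lat kept their sign and stayed beyond 2-fold in the mean under each alternative that gave a value, with ranges of -3.18 to -2.21, 1.96 to 4.90 and 1.55 to 2.04; that of Lat2 ran from -2.38 to -0.66. Normexp background correction moved Blnk to -2.21, Lat2 to -0.66 and Lax1 to 1.96, and setting dim values to the lowest detected level moved Lax1 to 3.88. Under normexp 312 genes of the whole array were 2-fold higher and 491 lower, 6 and 7 pathway genes were, and 614 genes (9 of the pathway) passed limma's test; without the filter on dim probes 1317 genes were 2-fold higher and 440 (3 of the pathway) passed. The prior degrees of freedom, by which limma pools variances over probes, were 2.92 in the main fit, 20.1 without the filter and infinite under normexp. The cause of the larger counts was not tested. With probes detected on all arrays 502 genes were higher, 593 lower, and 1 of the 9 genes (Lat) was 2-fold higher. With the local median subtracted 2 of the 9 were lower (Blnk and Lat2). Leaving out either replicate gave 899 to 1788 genes 2-fold higher and 1634 to 2193 lower over the whole array, 13 to 18 and 15 to 20 over the pathway, 2 higher and 1 to 2 lower of the 9, and no test could be made with 1 array against 1. No paired analysis was possible because the control has 1 array and no replicate number. Spots near the lowest detected signal limit Lat2 on replicate 1 and Lax1 on the control array.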
